A study of Homo sapiens with 3 samples.

Results

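Proteoglycans are proteins that carry long sulphated sugar chains, and this account covers 10 of their genes in LX-2, an immortalised human cell line derived from hepatic stellate cells. The genes were chosen by name, with earlier results of these data known. They were the small leucine-rich proteoglycans BGN, DCN and LUM, the cell-surface cores SDC1, SDC2, SDC3, SDC4, GPC1 and CSPG4, and the granule proteoglycan SRGN. Of these, 9 were found among the 17576 genes used, and DCN was not analysed here. RNA from 3 cultures was sequenced, 1 library for each treatment, at 48 h. The first received TGF-b1 with 10 μM of the small molecule called DP in the labels, the second TGF-b1 alone, and the third the vehicle DMSO. All were grown in medium with fetal bovine serum. The labels give neither the dose of TGF-b1 nor what DP stands for. As a model the cultures are limited to 1 cell line, with no matrix, hepatocytes or blood cells around it.

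With 1 library per treatment no difference below has a replicate check or a p-value, and each comparison is between libraries, not conditions. Differences are log2 differences of FPKM plus 1, where FPKM is fragments per kilobase of transcript, scaled to the mapped fragments of the library. A gene was called higher or lower where that difference was at least 1, a 2-fold difference on that scale, among the 11327 genes that averaged 1 FPKM or more. FPKM is per length, which allows genes of a library to be set side by side, but in the TGF-b1 library values moved with transcript length and GC content, so orders and shares there are those of the deposited values. The sums of FPKM were 429399 in TGF-b1+DP, 546754 in TGF-b1 and 443566 in DMSO. Fewer transcripts per cell and fewer cells that make them cannot be told apart in bulk RNA. Markers went with the label only in part. VIM was at 2800 FPKM in TGF-b1+DP, 2734 in TGF-b1 and 1936 in DMSO. COL1A1 was at 349 FPKM in TGF-b1+DP, 604 in TGF-b1 and 295 in DMSO. The quiescent stellate cell markers GFAP, DES and LRAT lay at or below 0.16 FPKM in all 3 libraries. ACTA2, the smooth muscle actin of myofibroblasts, was at 6.79 FPKM in TGF-b1+DP, 78.1 in TGF-b1 and 21.1 in DMSO. Of the 14 stellate cell and myofibroblast markers 9 averaged 1 FPKM or more. For TGF-b1+DP over DMSO none of the 9 was higher and 4 were lower, beside 2.45% and 2.88% of all genes. The 4 were COL3A1 (-1.60), ACTA2 (-1.50), NGFR (-1.46) and LHX2 (-1.43). The median of the 9 was -0.38, beside -0.10 over all genes. In TGF-b1 over DMSO 3 of the 9 were higher and 1 lower, beside 2.31% and 6.73% of all genes. In TGF-b1+DP over TGF-b1 none was higher and 3 were lower, beside 6.19% and 4.26%. The 14 summed to 3181 FPKM in TGF-b1+DP, 3471 in TGF-b1 and 2311 in DMSO, most of it VIM.

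Small leucine-rich proteoglycans are secreted, bind collagen fibrils and growth factors, and shape how fibrils assemble. Biglycan and decorin carry chondroitin or dermatan sulphate and bind TGF-beta. Syndecans span the plasma membrane and glypicans are held to it by a lipid anchor, and both present growth factors to their receptors on heparan sulphate chains. In the fibrotic liver, stellate cells are a main source of the matrix cores.

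The genes that differed most as deposited are introduced with the DNA just before their start. In TGF-b1 over DMSO, GPC1, SDC3 and CSPG4 were lower and BGN was higher. After a correction for the length and GC content of the longest transcript, GPC1 was at -0.75, SDC3 at -0.80 and CSPG4 at -0.44, short of the threshold. Whether the bases shown bear on these levels was not tested. In each line the 250 bases before the RefSeq start are given 5′ to 3′ on the gene's strand, from the RefSeq promoter table (GRCh38.p14), which matched 6 of the 10 genes. Capitals mark the GC box GGGCGG on either strand, the sequence that SP1 binds.
GPC1: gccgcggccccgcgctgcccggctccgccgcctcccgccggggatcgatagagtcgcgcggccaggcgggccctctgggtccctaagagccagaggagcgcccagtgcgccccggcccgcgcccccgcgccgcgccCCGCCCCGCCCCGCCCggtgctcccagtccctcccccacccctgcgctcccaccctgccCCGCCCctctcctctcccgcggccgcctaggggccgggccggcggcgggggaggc
SDC3: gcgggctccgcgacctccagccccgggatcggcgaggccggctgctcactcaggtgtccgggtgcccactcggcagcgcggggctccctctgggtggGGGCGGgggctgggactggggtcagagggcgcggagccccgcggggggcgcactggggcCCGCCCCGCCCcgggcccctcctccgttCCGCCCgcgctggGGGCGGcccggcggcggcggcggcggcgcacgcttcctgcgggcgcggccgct
CSPG4: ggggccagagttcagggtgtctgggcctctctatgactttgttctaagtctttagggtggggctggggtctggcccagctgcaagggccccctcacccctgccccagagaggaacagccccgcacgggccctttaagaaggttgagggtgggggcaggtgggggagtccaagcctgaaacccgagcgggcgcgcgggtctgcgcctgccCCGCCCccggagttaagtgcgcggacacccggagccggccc
BGN: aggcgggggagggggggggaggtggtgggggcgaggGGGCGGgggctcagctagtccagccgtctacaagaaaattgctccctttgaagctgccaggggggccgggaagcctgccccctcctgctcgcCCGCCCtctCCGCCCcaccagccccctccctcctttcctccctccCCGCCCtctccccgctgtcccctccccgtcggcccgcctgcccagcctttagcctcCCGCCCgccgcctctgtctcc

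These windows are chr2:240435413-240435662 (plus strand, GPC1), chr1:30908759-30909008 (minus, SDC3), chr15:75712849-75713098 (minus, CSPG4) and chrX:153494730-153494979 (plus, BGN). GC content was 84.0% for GPC1, 83.6% for SDC3, 68.4% for CSPG4 and 74.0% for BGN, against a median of 58.0% over all 35116 windows of the table. The GC box occurred 4 times in GPC1, 5 times in SDC3, once in CSPG4 and 5 times in BGN, counting overlapping matches, and in at least 1 place in 42.6% of all windows. SDC4, whose level differed least, held 8. The SMAD palindrome GTCTAGAC, found in 0.182% of windows, was in none of the members' windows. The shorter SMAD motif CAGAC was found in 38.0% of all windows, 3 times in that of CSPG4 and in none of those of GPC1, SDC3 and BGN. The AP-1 letters TGANTCA (6.57% of windows) and the TATA box TATAAA (10.7%) were in none of the members' windows. The E-box CAGGTG (17.5%) was in those of CSPG4 and SDC3 and in 1 of the 2 windows of SDC1. Both strands were searched, and a match is only a match of letters.

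Among the leucine-rich cores, biglycan was a low transcript that was higher in both TGF-b1 libraries. BGN (gene ID 633, chromosome X, 153494939 to 153509554, plus strand, GRCh38, GENCODE 29) was at 5.17 FPKM in TGF-b1+DP, 3.37 in TGF-b1 and 1.18 in DMSO. TGF-b1 was above DMSO and TGF-b1+DP above both. The log2 difference was 1.00 for TGF-b1 over DMSO, at the edge of the threshold (0.79 with the libraries scaled to the same total), 1.501 for TGF-b1+DP over DMSO and 0.50 for TGF-b1+DP over TGF-b1. As ratios of FPKM these are 2.86, 4.38 and 1.53, in that order of comparisons. In DMSO the level of BGN was above that of 1.86% of the genes kept, and in TGF-b1+DP above that of 27.3%. LUM, which encodes lumican, a keratan sulphate core of collagen-rich tissue (gene ID 4060, chromosome 12, 91102629 to 91111831, minus strand), was listed at 0 in all 3 libraries.

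**Figure D1:**
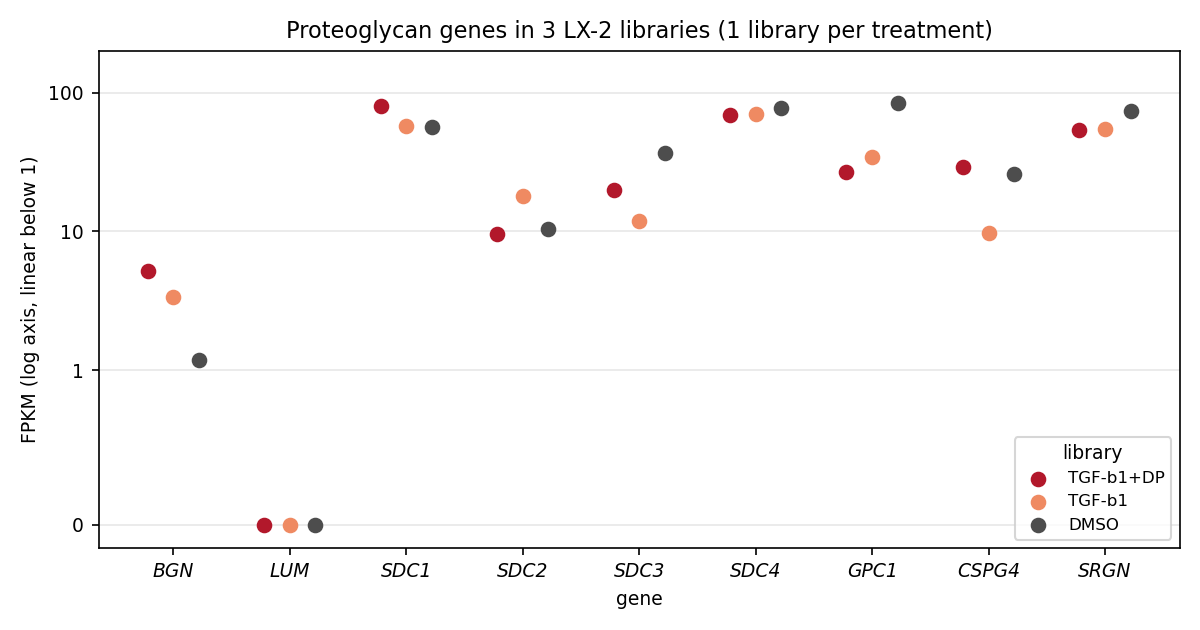
FPKM of the 9 measured proteoglycan genes (log vertical axis, linear below 1) in the TGF-b1+DP, TGF-b1 and DMSO libraries, 1 point per library with no replicates. GPC1 is at 27.0 and 34.5 FPKM in the libraries with TGF-b1 and 84.7 in DMSO, CSPG4 is lowest in TGF-b1 at 9.72, and LUM is listed at 0 throughout.

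Syndecan 1 and syndecan 4 were the most abundant syndecans, and syndecans 2 and 3 went opposite ways in the TGF-b1 library. SDC1, which carries heparan and chondroitin sulphate and is shed from cells (gene ID 6382, chromosome 2, 20200797 to 20225433, minus strand), was at 80.3 FPKM in TGF-b1+DP, 57.5 in TGF-b1 and 56.0 in DMSO. Its values in TGF-b1 and DMSO lay close together, and that in TGF-b1+DP was the highest, with a log2 difference of 0.47 over TGF-b1 and 0.51 over DMSO, short of the threshold. SDC4, a core of focal adhesions (gene ID 6385, chromosome 20, 45325288 to 45348424, minus strand), was at 68.8 FPKM in TGF-b1+DP, 69.9 in TGF-b1 and 77.5 in DMSO. Its largest difference was -0.17, for TGF-b1+DP over DMSO.

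SDC2, the syndecan typical of mesenchymal cells (gene ID 6383, chromosome 8, 96493351 to 96611780, plus strand), was at 9.56 FPKM in TGF-b1+DP, 17.9 in TGF-b1 and 10.4 in DMSO. It was highest in TGF-b1 alone, and its level with DP lay near that in DMSO. The differences were 0.73 for TGF-b1 over DMSO, -0.84 for TGF-b1+DP over TGF-b1 and -0.11 for TGF-b1+DP over DMSO, none past the threshold. SDC3, best known from neurons (gene ID 9672, chromosome 1, 30869467 to 30908761, minus strand), was at 19.8 FPKM in TGF-b1+DP, 11.9 in TGF-b1 and 36.6 in DMSO. It was lowest in TGF-b1 alone (-1.54 over DMSO), and TGF-b1+DP lay between the other libraries (0.69 over TGF-b1 and -0.85 over DMSO). With the length and GC correction SDC3 was at -0.80 for TGF-b1 over DMSO and 0.10 for TGF-b1+DP over TGF-b1. Within a library the ratio of SDC2 to SDC3, which no scaling of libraries can move, was 0.483 in TGF-b1+DP, 1.51 in TGF-b1 and 0.285 in DMSO. On the log2 scale with 1 added to each FPKM it differed by -1.53 for TGF-b1+DP over TGF-b1 and by 2.27 for TGF-b1 over DMSO, but after a correction for transcript length and GC content by -0.87 and 1.46.

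Glypican 1 was the member called lower than DMSO in the library with DP. GPC1, a lipid-anchored heparan sulphate core that binds FGF2 (gene ID 2817, chromosome 2, 240435671 to 240468078, plus strand), was at 27.0 FPKM in TGF-b1+DP, 34.5 in TGF-b1 and 84.7 in DMSO. Both TGF-b1 libraries were well below DMSO, at 0.319 of its level in TGF-b1+DP and 0.407 in TGF-b1. The differences were -1.61 for TGF-b1+DP over DMSO, -1.27 for TGF-b1 over DMSO and -0.34 for TGF-b1+DP over TGF-b1. After the length and GC correction they were -1.49, -0.75 and -0.68. In DMSO GPC1 was the most abundant of the 9 genes, in TGF-b1 the fourth and in TGF-b1+DP the fifth.

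The order of levels therefore differed between libraries. In TGF-b1+DP it was SDC1, SDC4, SRGN, CSPG4, GPC1, SDC3, SDC2 and BGN, in TGF-b1 SDC4, SDC1, SRGN, GPC1, SDC2, SDC3, CSPG4 and BGN, and in DMSO GPC1, SDC4, SRGN, SDC1, SDC3, CSPG4, SDC2 and BGN, from high to low. With no replicates, it cannot be said which neighbours in these orders differ beyond their spread.

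Set against each other, the 5 heparan sulphate cores differed in makeup between the libraries. Summed FPKM of SDC1, SDC2, SDC3, SDC4 and GPC1 was 205.5 in TGF-b1+DP, 191.7 in TGF-b1 and 265.2 in DMSO. GPC1 held 13.1% of it in TGF-b1+DP, 18.0% in TGF-b1 and 31.9% in DMSO, while SDC1 held 39.1% in TGF-b1+DP, 30.0% in TGF-b1 and 21.1% in DMSO. The ratio of SDC1 to GPC1 was 2.98 in TGF-b1+DP, 1.67 in TGF-b1 and 0.662 in DMSO. Between libraries that ratio differed by 2.17 on the log2 scale for TGF-b1+DP over DMSO and by 1.33 for TGF-b1 over DMSO, or by 2.13 and 1.31 with 1 added to each FPKM. The transcripts are alike in length and GC content (3291 nt and 60.1% for SDC1, 3713 nt and 66.7% for GPC1), and after a correction for both properties the last pair of values was 2.14 and 1.15.

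**Figure D2:**
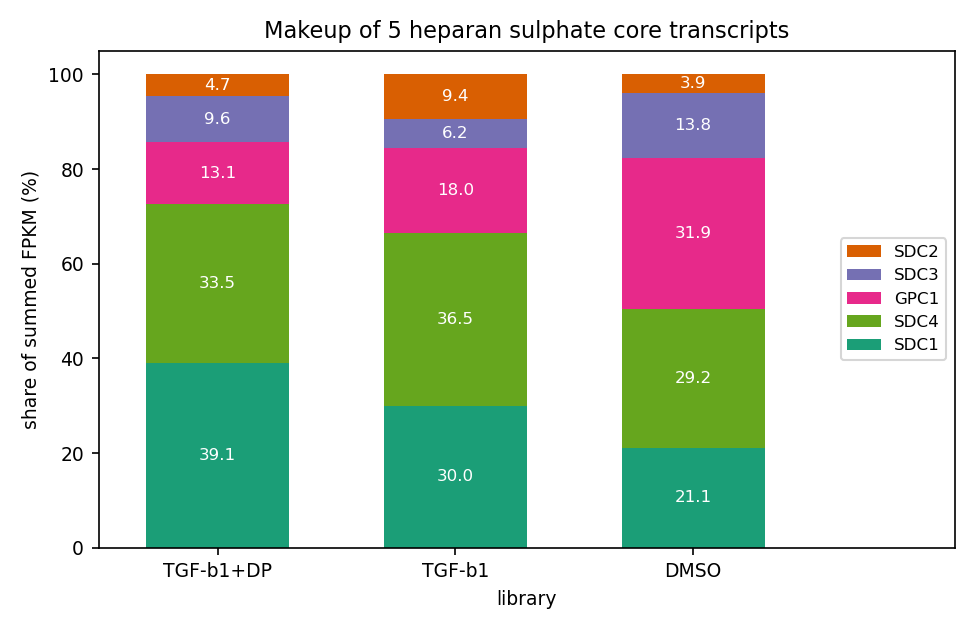
Share of the summed FPKM of SDC1, SDC2, SDC3, SDC4 and GPC1 (vertical axis, %) held by each gene in the TGF-b1+DP, TGF-b1 and DMSO libraries, 1 library per bar. The GPC1 share is 13.1%, 18.0% and 31.9% from left to right, and the SDC1 share 39.1%, 30.0% and 21.1%.

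CSPG4, known as NG2, was lowest in TGF-b1 alone and near its DMSO level with DP. CSPG4 is a membrane chondroitin sulphate core of pericytes and other mural cells (gene ID 1464, chromosome 15, 75674322 to 75712848, minus strand). It was at 28.9 FPKM in TGF-b1+DP, 9.72 in TGF-b1 and 25.8 in DMSO. The values in TGF-b1+DP and DMSO lay together, and that in TGF-b1 was 0.376 of DMSO. The differences were 1.48 for TGF-b1+DP over TGF-b1, -1.32 for TGF-b1 over DMSO and 0.16 for TGF-b1+DP over DMSO. After the length and GC correction they were 0.63, -0.44 and 0.19, all short of the threshold. Fragments from its pseudogenes are a limit: the transcript matched that of CSPG4P13 over 4537 bases at 94.1% identity, and 563 bases of its exons overlap an antisense transcript, so reads could be shared.

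SRGN, serglycin, packs proteases and cytokines in secretory granules of blood cells and is also made by endothelial and some tumour cells (gene ID 5552, chromosome 10, 69088106 to 69104811, plus strand). It was abundant in all libraries, at 54.0 FPKM in TGF-b1+DP, 54.8 in TGF-b1 and 73.8 in DMSO, above at least 85.2% of the genes kept in each. As deposited, the libraries with TGF-b1 had close values below that of DMSO, with differences of -0.44 for TGF-b1+DP over DMSO and -0.42 for TGF-b1 over DMSO. After the length and GC correction SRGN was at -0.56 for TGF-b1+DP over DMSO, -1.60 for TGF-b1 over DMSO and 1.08 for TGF-b1+DP over TGF-b1. Markers of the cell types best known for SRGN differed in level. PTPRC, the pan-leukocyte antigen, was at 0.26 FPKM in TGF-b1+DP, 0.55 in TGF-b1 and 0.58 in DMSO, and CD3E was listed at 0. The 6 endothelial markers summed to 3.77 FPKM in TGF-b1+DP, 1.23 in TGF-b1 and 1.48 in DMSO. The 6 measured blood cell markers summed to 58.2 FPKM in TGF-b1+DP, 26.4 in TGF-b1 and 55.1 in DMSO, and 3 of them averaged 1 FPKM or more. Most of the sum was the lysosomal protein CD68, at 54.8 FPKM in TGF-b1+DP, 21.3 in TGF-b1 and 48.5 in DMSO. The monocyte marker CD14 was at 0.96 FPKM in TGF-b1+DP, 2.94 in TGF-b1 and 4.77 in DMSO, and the macrophage receptor CSF1R at 1.52 FPKM in TGF-b1+DP, 1.25 in TGF-b1 and 0.48 in DMSO. The cultures are of 1 cell line, and whether these marker levels bear on that of SRGN was not tested.

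Against the background of all genes, the lower members were the most frequent in TGF-b1 over DMSO. There 3 of the 8 members kept were lower (SDC3, CSPG4 and GPC1), where 6.73% of the 11327 genes were lower, and 1 was higher (BGN), where 2.31% were higher. The median of the 8 was -0.28, beside -0.10 over all genes. In TGF-b1+DP over TGF-b1, CSPG4 was higher, where 6.19% of all genes were, and none was lower, where 4.26% were, with a median of 0.23 beside -0.00. For TGF-b1+DP over DMSO, BGN was higher, where 2.45% of all genes were, and GPC1 lower, where 2.88% were, with a median of -0.14 beside -0.10. The first and second of these comparisons share the TGF-b1 library, which enters them with opposite sign, so a value particular to that library moves both. Members were chosen with earlier results of these data known, so their counts beside all genes are a description only.

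**Figure D3:**
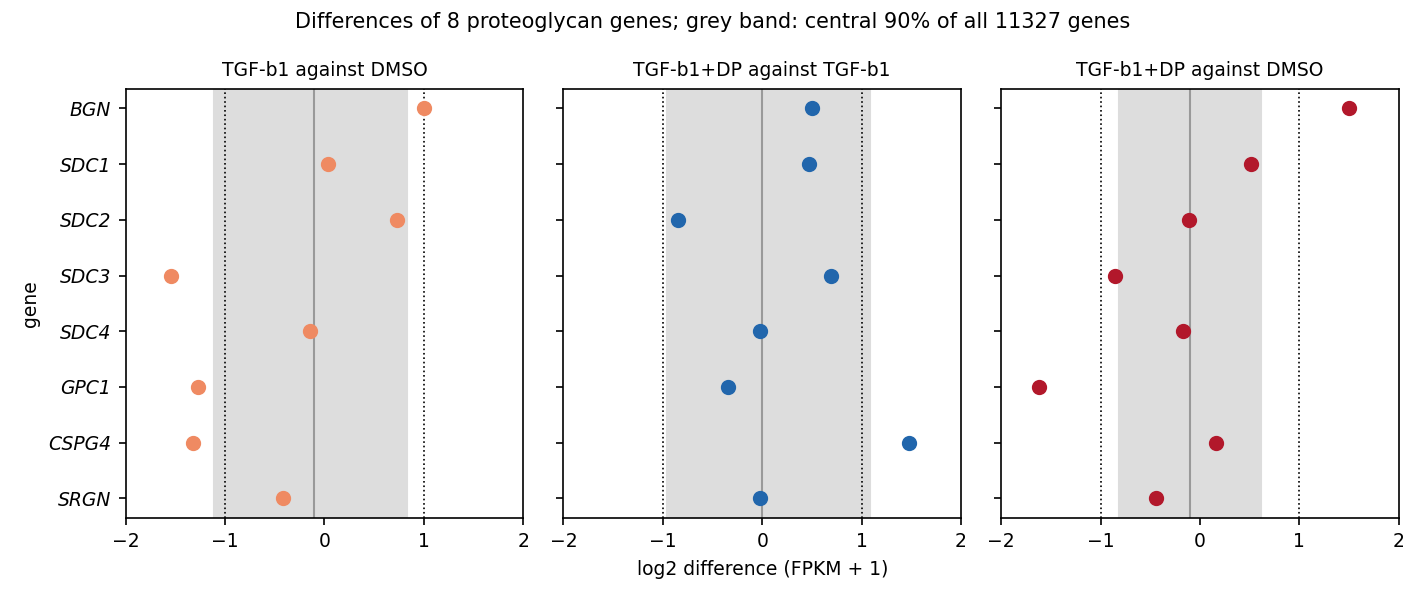
Log2 difference of FPKM plus 1 (horizontal axis) of the 8 proteoglycan genes averaging 1 FPKM or more in each of the 3 comparisons of libraries. The grey band holds the central 90% of all 11327 genes, the grey line is their median and the dotted lines mark -1 and 1; BGN (1.501) and GPC1 (-1.61) lie outside the dotted lines in TGF-b1+DP over DMSO.

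Over all genes, differences moved with transcript length and GC content. The median difference of TGF-b1 over DMSO was 0.34 over the 2256 shortest genes (longest transcript up to 2152 nt) and -0.43 over the 2256 longest (from 5928 nt), and 0.11 over the genes lowest in GC content and -0.35 over the highest. For TGF-b1+DP over DMSO the medians of 5 equal groups by length lay between -0.16 and -0.03, and those by GC content ran from 0.03 over the lowest to -0.22 over the highest. The 3 members lower in TGF-b1 are GC-rich and, for SDC3 (6392 nt, 58.7% GC) and CSPG4 (8290 nt, 63.5%), long. SRGN is short and poor in GC (1208 nt, 38.1%).

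With the median trend over length and GC content subtracted, the lower calls in TGF-b1 over DMSO differed. SDC3 was at -0.80, GPC1 at -0.75 and CSPG4 at -0.44, all short of the threshold, and SRGN was at -1.60. For TGF-b1+DP over TGF-b1, CSPG4 was at 0.63 and SRGN at 1.08. BGN was still past the threshold over DMSO, at 1.60 in the library with DP and 1.16 in that without, as was GPC1 in TGF-b1+DP over DMSO (-1.49). So SRGN alone was lower and BGN alone higher in TGF-b1 over DMSO, where 2.46% of 11280 genes were lower and 1.68% higher. SRGN alone was higher and none lower in TGF-b1+DP over TGF-b1, beside 3.22% and 2.38% of all genes. In TGF-b1+DP over DMSO the calls were BGN higher and GPC1 lower, beside 2.41% and 2.56%. The calls of SDC3, GPC1, CSPG4 and SRGN that involve the TGF-b1 library thus depended on whether that trend was subtracted. With the mean length and GC content of the transcripts of a gene, a setting chosen after seeing the data, SDC3 was at -1.06 and SRGN at -1.16 in TGF-b1 over DMSO. The source of the trend was not tested.

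**Figure D4:**
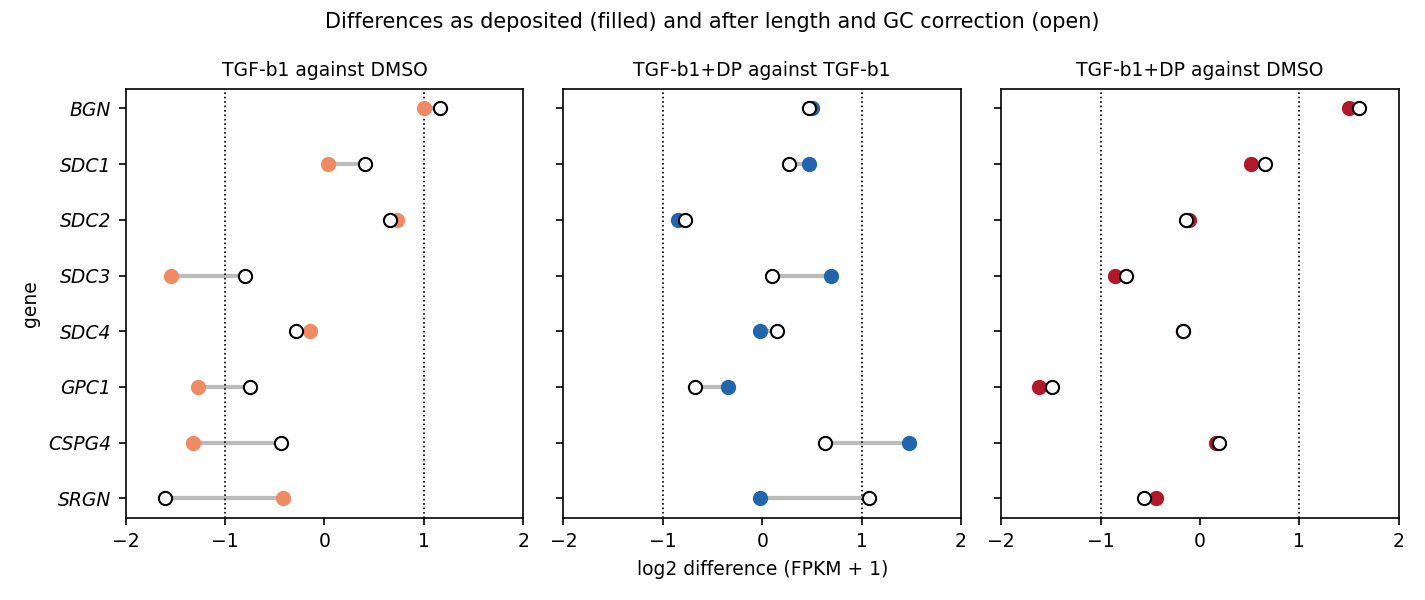
Log2 difference of FPKM plus 1 (horizontal axis) of 8 proteoglycan genes as deposited (filled points) and after subtraction of the median trend over transcript length and GC content (open points), for 3 comparisons of libraries. In the comparisons with the TGF-b1 library SRGN, CSPG4 and SDC3 move most, as SRGN does to -1.60 over DMSO, while in TGF-b1+DP over DMSO BGN stays above 1 and GPC1 below -1.

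Few other leucine-rich cores were measured at a level that could be compared. Among 15 other small leucine-rich proteoglycans, 12 were in the table and 2 reached a mean of 1 FPKM, TSKU (24.5 FPKM in TGF-b1+DP, 30.1 in TGF-b1 and 29.3 in DMSO) and PODNL1. ASPN, FMOD, OGN and OMD, matrix cores of tendon, bone and scar, were at or below 0.03 FPKM in every library. Among the other cell-surface cores, GPC6 was at 2.55 FPKM in TGF-b1+DP, 7.89 in TGF-b1 and 2.61 in DMSO, with a difference of -1.32 for TGF-b1+DP over TGF-b1 and 1.30 for TGF-b1 over DMSO. It was the only called gene of the 6 kept in that list. Of all genes, 2.31% were higher in TGF-b1 over DMSO and 4.26% lower in TGF-b1+DP over TGF-b1. CD44, a hyaluronan receptor that can carry chains, was at 225 FPKM in TGF-b1+DP, 172 in TGF-b1 and 139 in DMSO (0.69 for TGF-b1+DP over DMSO). TGFBR3, betaglycan, which presents TGF-beta to its receptors, was at 1.49 FPKM in TGF-b1+DP, 0.81 in TGF-b1 and 2.36 in DMSO.

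Secreted cores outside the leucine-rich group went both ways. In TGF-b1 over DMSO, 2 of the 7 kept were higher and 2 lower, with a list median of 0.27 beside -0.10 over all genes, where 2.31% were higher and 6.73% lower. After the length and GC correction 2 were higher and 1 lower, and the list median turned to -0.13. VCAN, versican, a large hyaluronan-binding core, was at 6.34 FPKM in TGF-b1+DP, 8.24 in TGF-b1 and 1.63 in DMSO (1.48 for TGF-b1+DP over DMSO and 1.81 for TGF-b1 over DMSO). SPOCK1, testican 1, was at 231 FPKM in TGF-b1+DP, 138 in TGF-b1 and 61.8 in DMSO (1.89 for TGF-b1+DP over DMSO and 1.15 for TGF-b1 over DMSO). AGRN, agrin, a basement membrane core, was at 38.2 FPKM in TGF-b1+DP, 13.6 in TGF-b1 and 41.8 in DMSO, lower in TGF-b1 (-1.55, or -0.75 after the length and GC correction). HSPG2, perlecan, was at 5.07 FPKM in TGF-b1+DP, 0.58 in TGF-b1 and 8.73 in DMSO (-2.62 for TGF-b1 over DMSO, and -1.63 after the correction). ESM1, endocan, a small dermatan sulphate core known from endothelial cells, was at 30.3 FPKM in TGF-b1+DP, 1.73 in TGF-b1 and 1.24 in DMSO (3.52 for TGF-b1+DP over TGF-b1). With HSPG2 (1.94) and AGRN (1.42) it made 3 higher and none lower in that comparison, where 6.19% of all genes were higher and 4.26% lower. After the length and GC correction AGRN was at 0.71 and HSPG2 at 1.01, so 2 were higher.

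Few of the enzymes that build the chains were called. As deposited, none of the 7 linker enzymes was called in any comparison, nor was any of the 10 genes kept that supply sugar and sulphate donors. Of all genes, 2.31% to 6.73% were called in each comparison and direction. XYLT1, which starts the linker, was the highest linker enzyme over DMSO, at 22.01 FPKM in TGF-b1+DP, 14.95 in TGF-b1 and 11.52 in DMSO (0.88 for TGF-b1+DP over DMSO), and after the length and GC correction it was at 1.07 for TGF-b1 over DMSO. Of 11 heparan sulphate enzymes kept, 2 were lower in TGF-b1 than in DMSO and none higher, beside 6.73% and 2.31% of all genes. The 2 were HS6ST1, a 6-O-sulphotransferase (-1.19), and EXTL3, which starts the heparan chain (-1.12). The list median was -0.45, beside -0.10 over all genes. After the length and GC correction none of the 11 was lower by 1, where 2.46% of all genes were, and the median was -0.31. For TGF-b1+DP over TGF-b1, EXTL3 (1.25) and HPSE, heparanase (1.02), were higher and none lower, beside 6.19% and 4.26% of all genes. The median was 0.64 beside -0.00, or 0.09 with none called after that correction. In TGF-b1+DP over DMSO HS3ST3A1 alone was called, higher at 1.49 (1.59 after the correction), beside 2.45% of all genes. HS3ST3A1 was at 3.19 FPKM in TGF-b1+DP, 1.47 in TGF-b1 and 0.49 in DMSO. It averaged 1 FPKM or more only through the library in which it was called higher, so the filter favoured this call.

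Among 12 chondroitin and dermatan sulphate enzymes kept, CHST3, a 6-O-sulphotransferase, was lower in TGF-b1 than in DMSO (-1.23, or -0.58 after the length and GC correction). CHST11, a 4-O-sulphotransferase, was at 7.61 FPKM in TGF-b1+DP, 2.67 in TGF-b1 and 1.47 in DMSO, a difference of 1.23 over TGF-b1 and 1.80 over DMSO. DSE, an epimerase that turns chondroitin into dermatan sulphate, was at 28.98 FPKM in TGF-b1+DP, 18.39 in TGF-b1 and 12.04 in DMSO (1.20 for TGF-b1+DP over DMSO, or 0.99 after that correction). These were the only calls of the list, where 6.73% of all genes were lower in TGF-b1 over DMSO. Of all genes 6.19% were higher in TGF-b1+DP over TGF-b1 and 2.45% in TGF-b1+DP over DMSO. The list median was -0.09 for TGF-b1 over DMSO, 0.50 for TGF-b1+DP over TGF-b1 and 0.25 for TGF-b1+DP over DMSO. Over all genes it was -0.10, -0.00 and -0.10. After the correction none of the 12 was higher and 3 were lower in TGF-b1+DP over TGF-b1, beside 3.22% and 2.38% of all genes. The 3 were CHST12 (-1.12), CHST14 (-1.06) and CHSY1 (-1.04). As deposited they were at -0.30, -0.81 and -0.81, short of the threshold. For CHST12 the correction used a longest transcript of 15979 nt.

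Several proteases known to cut proteoglycan cores were higher in the library with DP. This list, like the other lists here, was chosen with earlier results of these data known. Its counts beside all genes are therefore a description only. Of 10 kept, 5 exceeded the threshold upward and none downward for TGF-b1+DP over TGF-b1, beside 6.19% and 4.26% of all genes. The median was 1.12, and after the length and GC correction it was 0.70 with 4 higher. For TGF-b1+DP over DMSO 6 did so upward and none downward, beside 2.45% and 2.88% of all genes, and the median was 1.32. MMP14, a membrane protease that sheds SDC1, was at 104 FPKM in TGF-b1+DP, 13.1 in TGF-b1 and 23.1 in DMSO (2.90 over TGF-b1). MMP9 was at 46.5 FPKM in TGF-b1+DP, 6.75 in TGF-b1 and 6.76 in DMSO (2.62) and PLAU, urokinase, at 44.0 FPKM in TGF-b1+DP, 12.2 in TGF-b1 and 11.3 in DMSO (1.77). In TGF-b1 over DMSO MMP2 alone was higher, at 43.5 FPKM in TGF-b1 and 16.2 in DMSO (1.37). ADAM10, ADAM17 and BMP1, the last of which processes the biglycan precursor, were not called in any comparison. RNA levels do not show whether any core was cut.

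Ligands and receptors that bind the cores made up the last list. In TGF-b1 over DMSO, 5 of the 13 kept were higher and 2 lower, beside 2.31% and 6.73% of all genes, and the median was -0.46 beside -0.10. After the length and GC correction 4 were higher and none lower, and the median was 0.003. FGF2, a growth factor that signals with heparan sulphate, was at 50.2 FPKM in TGF-b1+DP, 28.6 in TGF-b1 and 9.54 in DMSO (2.28 for TGF-b1+DP over DMSO and 1.49 for TGF-b1 over DMSO). CXCL12, a chemokine held on heparan sulphate, was at 221 FPKM in TGF-b1+DP, 525 in TGF-b1 and 157 in DMSO, higher in TGF-b1 (1.73) and lower with DP than in TGF-b1 alone (-1.24). CCN2, a matrix protein induced by TGF-beta, was at 139 FPKM in TGF-b1+DP, 144 in TGF-b1 and 26.1 in DMSO. LRP1, an endocytic receptor, was at 14.1 FPKM in TGF-b1+DP, 6.59 in TGF-b1 and 14.5 in DMSO (-1.03 for TGF-b1 over DMSO, and -0.10 after the correction). EGFR was at 22.6 FPKM in TGF-b1+DP, 9.57 in TGF-b1 and 15.6 in DMSO (1.16 for TGF-b1+DP over TGF-b1, and 0.53 after it). TLR2 and TLR4, which sense soluble biglycan, were at or below 0.31 FPKM in all libraries. Exons of HSPG2, DSE, FGF2, ADAM17, PODNL1, GFAP and ACTA2 overlap those of another gene in the table. Those of VCAN, GPC6, AGRN, EXTL3, XYLT1, LRP1, EGFR, TLR4, MMP2, MMP9, PLAU, ADAM10, BMP1, CCN2, CD68, VIM, DES, NGFR and LHX2 overlap other annotated transcripts on either strand, so all these values are less certain.

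**Figure D5:**
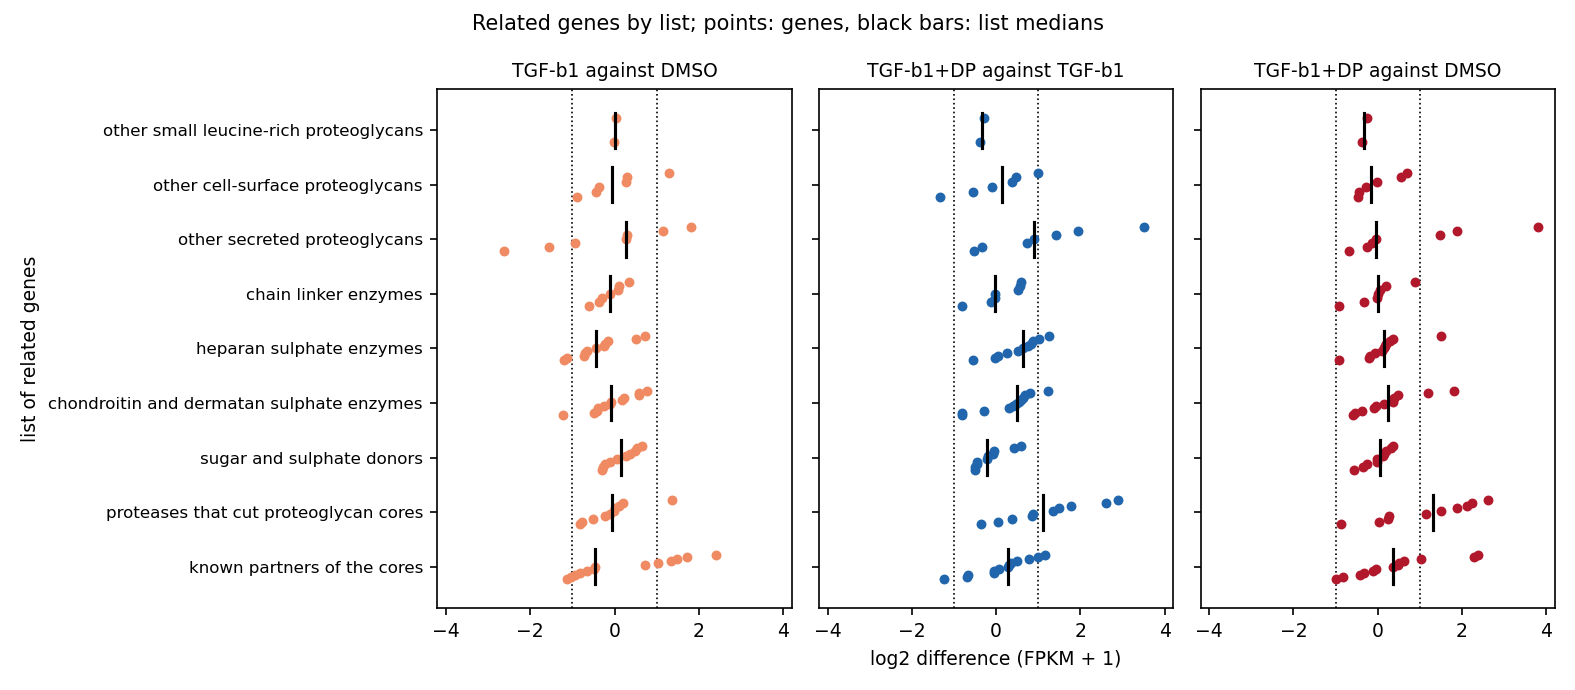
Log2 difference of FPKM plus 1 (horizontal axis) of genes averaging 1 FPKM or more in 9 lists of proteoglycan-related genes, for 3 comparisons of libraries, with points for genes and black bars for list medians. The protease list has medians of 1.12 and 1.32 in the comparisons with TGF-b1+DP on top, while linker enzymes lie between -1 and 1 in all 3.

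The listed gene nearest to each called member in its differences for TGF-b1 over DMSO and TGF-b1+DP over TGF-b1 was sought among 85 genes. It was SPOCK1 for BGN (distance 0.28 in log2 units), CHST3 for SDC3 (0.31), PRKCA for GPC1 (0.44) and AGRN for CSPG4 (0.23). The distances used the deposited differences and were not computed after the length and GC correction. In TGF-b1 over DMSO that correction took SDC3 from -1.54 to -0.80 and CHST3 from -1.23 to -0.58. It took CSPG4 from -1.32 to -0.44, AGRN from -1.55 to -0.75, GPC1 from -1.27 to -0.75 and PRKCA from -0.94 to -0.44. BGN went from 1.00 to 1.16 and SPOCK1 from 1.15 to 1.24. The measure rests on 3 libraries and carries no test.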

How the data were processed

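RNA of 3 LX-2 cultures was measured, 1 library each, and the authors deposited 1 table of FPKM values to 2 decimals, per the file headers. Per the submitters' processing notes, BWA, Bowtie, Cufflinks and Cuffdiff were among the tools and GRCh38.p13 was the genome. Their roles and versions, the strand setting and any filters are not given in the sources used for this account. Of 17596 lines, 20 without a numeric gene ID and a symbol were left out. Columns were matched to samples by title.

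Differences were log2((FPKM+1)/(FPKM+1)), with a pseudocount of 1 that understates differences of low genes, among 11327 genes averaging 1 FPKM or more and with no further scaling. With 1 library per group no test was possible. The length and GC correction subtracted medians in 20 bins of each property of the longest GENCODE 29 transcript (11280 genes), and was tested on simulated data. Other settings were a pseudocount of 0.1, no filter or one of 5 FPKM, 3 scalings and a 1.5-fold threshold. Members and lists were chosen with earlier results of these data known. The rule for named genes took all members, and up to 3 called genes a list, comparison and direction that reached 5 FPKM; the lowest, highest and other list genes given are outside it in part and were chosen after their values were seen. Among the donors, IMPAD1 is an older symbol of BPNT2. Member transcripts were searched against all GENCODE transcripts with minimap2 2.31. For each other gene with at least 200 matching bases, only the alignment with the most matching bases was kept. None of these reached 97% identity over its whole length, and shorter stretches of higher identity were not looked for. Python 3.11.15, numpy 2.4.6, pandas 2.3.3 and matplotlib 3.10.9 were used.

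Depth is unknown. In low values of genes with 1 exon, a step was fitted to FPKM times length, from the same values it was then set against. In the TGF-b1 library the best step was 0.0519 with the RefSeq gene span and 0.0372 with the GENCODE transcript length. Of those values 68.7% and 29.6% lay near a multiple of the step. Reads were therefore not recovered, and no counting interval is given.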

Additional observations from a re-analysis of the deposited data

How the results depend on the processing

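The differences of the 8 members were recomputed under every other setting. With a pseudocount of 0.1, no filter or upper-quartile scaling, no member changed its call. Scaling to the same total moved the median of all genes by -0.26 for TGF-b1 against DMSO and by 0.29 for TGF-b1+DP against TGF-b1. It put BGN at 0.79 in TGF-b1 against DMSO, so 0 members were higher there, and SDC3 at 1.01 in TGF-b1+DP against TGF-b1, so 2 were higher. It also turned SDC1 to -0.26 against DMSO in TGF-b1, and SRGN to 0.32 and SDC4 to 0.32 in TGF-b1+DP against TGF-b1. Median-of-ratios scaling moved all genes by 0.16 for TGF-b1 against DMSO and by 0.14 for TGF-b1+DP against DMSO, and the median of members for TGF-b1+DP against DMSO was 0.0143. It put SDC4 at 0.04 for TGF-b1 against DMSO and SDC2 at 0.04 for TGF-b1+DP against DMSO, both from below 0. Upper-quartile scaling moved the median of all genes by 0.11 for TGF-b1 against DMSO. A filter of 5 FPKM removes BGN, so 0 members were higher in TGF-b1 or in TGF-b1+DP against DMSO, and the median for TGF-b1+DP against TGF-b1 was -0.0213. With no filter, which adds LUM, that median was 0. After length and GC correction 1 member (SRGN) was lower in TGF-b1 against DMSO, in place of 3, and SRGN turned to 1.08 in TGF-b1+DP against TGF-b1. With the mean length of a gene's transcripts, chosen after seeing the data, SRGN was at -1.16 and 0.61, SDC3 kept its call, and 0 members were higher in TGF-b1+DP against TGF-b1. At a 1.5-fold threshold 2 members were higher in TGF-b1 against DMSO, 2 higher and 1 lower in TGF-b1+DP against TGF-b1, and 2 lower in TGF-b1+DP against DMSO. GPC1 stayed between -1.65 and -1.45, and BGN between 1.501 and 2.04, in TGF-b1+DP against DMSO under all these settings that kept them. Causes were not tested. No paired analysis was possible because each group has 1 library. Depth is unknown, so no limit from it can be given.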

Other observations

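A few other genes of these lists, chosen after their values were seen, had levels highest in the library with DP. PRG4, lubricin, was at 2.25 FPKM in TGF-b1+DP, 0.06 in TGF-b1 and 0.01 in DMSO, below the filter on the mean, and its exons overlap those of TPR. HS3ST3A1, a 3-O-sulphotransferase of heparan sulphate, was at 3.19 FPKM in TGF-b1+DP, 1.47 in TGF-b1 and 0.49 in DMSO. ADAMTS4 and ADAMTS1, which cut versican and aggrecan, were at 6 and 5 FPKM in TGF-b1+DP, 1.49 and 1.35 in TGF-b1, and 1.46 and 1.73 in DMSO.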
